A study of Mus musculus with 37 samples.

Results

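Afp, H19, Igf2, Gpc3, Scd2 and Lpl are genes that the mouse liver transcribes before or around birth and largely silences afterwards, and they were followed here as 6 named rows of a table of 55487 genes. Their rows were taken by symbol. All 6 passed the filter on low counts, in a set of 15564 genes tested. The table came from RNA sequencing of liver, 1 library for each of 37 samples, 18 wild type (WT) and 19 carrying the NOX4-/- genotype (knockout, KO), which lack the hydrogen peroxide-producing enzyme NADPH oxidase 4. The animals had either partial hepatectomy, in which part of the liver is cut away and the remainder regrows, or a sham operation.

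The WT groups were 5 livers after sham operation (taken at 6 h, 24 h or 7 d in 1 liver each and at 48 h in 2), and 3 livers at 6 h, 3 at 24 h, 4 at 48 h and 3 at 7 d after hepatectomy. The KO groups were 5 sham livers (1 at 6 h, 1 at 24 h, 2 at 48 h and 1 at 72 h) and, after hepatectomy, 3 at 6 h, 4 at 24 h, 4 at 48 h and 3 at 7 d. Within a genotype, sham livers of all times were pooled into 1 group. Both sexes were used, 14 females and 23 males, but all 6 livers at 6 h after hepatectomy were male. The labels give no strain, age, tissue restriction of the deletion or statement on pooling of animals, so p-values measure the spread between these libraries. Levels are CPM, counts scaled to library size after TMM correction, and a change is a log2 ratio with its standard error (SE) from edgeR's quasi-likelihood test, adjusted over all genes tested and called at an adjusted p under 0.05.

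Nox4 itself was at 0.778 to 23.5 CPM in WT livers and 0 to 4.98 CPM in KO livers, so the ranges overlapped with the sexes pooled. In females it was at 0.778 to 3.36 CPM in WT and 0 to 0.245 CPM in KO, with no overlap. In males it was at 3.95 to 23.5 CPM in WT and 0.325 to 4.98 CPM in KO, which overlapped. Averaged over stages Nox4 was lower in KO by a log2 change of -2.82 (SE 0.28, adjusted p = 4.27e-08). The labels do not say which part of the gene is deleted, and the counts cover the whole gene. Alb, the albumin gene that marks hepatocytes, was at 24283 to 113212 CPM in all 37 livers. WT replicate 3 at 24 h and WT replicate 3 at 48 h stood apart in several of the genes below. These 2 libraries also held the highest levels of 12 striated muscle markers, 1459 and 546 CPM summed, against a median of 1.615 CPM in the 36 livers other than the first of them. Results that rest on them are given with and without them.

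Alpha-fetoprotein (Afp) is the main plasma protein of the fetal liver and belongs to the albumin gene family. In the mouse, its repression after birth, and that of H19, Gpc3 and Lpl, depends on the zinc-finger and homeobox factor Zhx2, and Zbtb20 and Zfhx3 are further repressors of Afp. H19, a long noncoding RNA, and Igf2, a fetal growth factor, are imprinted neighbours expressed from opposite parental chromosomes. Gpc3 is a cell-surface heparan sulfate proteoglycan, Scd2 a stearoyl-CoA desaturase that makes monounsaturated fatty acids, and Lpl the lipoprotein lipase that frees fatty acids from circulating triglyceride.

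In GRCm38, Afp (ENSMUSG00000054932.6) lies on chromosome 5 at chr5:90490737-90508907 on the plus strand, and Scd2 (ENSMUSG00000025203.6) on chromosome 19 at chr19:44293674-44306864 on the plus strand. Lpl (ENSMUSG00000015568.16) lies at chr8:68880491-68907448 on the plus strand and Gpc3 (ENSMUSG00000055653.13) at chrX:52272426-52613950 on the minus strand. H19 (ENSMUSG00000000031.16, chr7:142575529-142578143) and Igf2 (ENSMUSG00000048583.16, chr7:142650766-142666816) are both on the minus strand of chromosome 7, with 72623 bp between them. Antisense genes that overlap them had few counts. Gm43449, an antisense gene inside Afp that shares no exon with it, had 155 counts over all 37 livers and Igf2os, antisense to Igf2, had 21. Gm49394, a protein-coding gene on the same strand as Igf2, shares exons with it and had 0 counts. Whether reads from those shared exons were assigned to Igf2 was not tested.

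The RefSeq promoter table (GRCm38.p6, 250 bases before to 50 after each start) held 3 of the 6 genes, Afp, Igf2 and Gpc3. The promoters of Afp and Gpc3 are shown because both genes were called higher in WT livers at 48 h and because their base composition differs. Capitals mark matches to 4 motifs on either strand, GTTAAT (a motif found in promoters of liver genes), TGTTTGC (a forkhead core), TATAAA (the TATA box) and GGGCGG (the GC box, CCGCCC on the other strand), whose letters were chosen after the Afp sequence had been seen. The Afp stretch is chr5:90490464-90490763 on the plus strand and the Gpc3 stretch chrX:52613925-52614224 on the minus strand.
Afp promoter: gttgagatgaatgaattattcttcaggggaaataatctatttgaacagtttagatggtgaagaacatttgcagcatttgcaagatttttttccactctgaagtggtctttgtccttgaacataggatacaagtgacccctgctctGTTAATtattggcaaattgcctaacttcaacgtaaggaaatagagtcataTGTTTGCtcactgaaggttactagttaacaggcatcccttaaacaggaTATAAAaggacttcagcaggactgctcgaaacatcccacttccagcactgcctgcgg
Gpc3 promoter: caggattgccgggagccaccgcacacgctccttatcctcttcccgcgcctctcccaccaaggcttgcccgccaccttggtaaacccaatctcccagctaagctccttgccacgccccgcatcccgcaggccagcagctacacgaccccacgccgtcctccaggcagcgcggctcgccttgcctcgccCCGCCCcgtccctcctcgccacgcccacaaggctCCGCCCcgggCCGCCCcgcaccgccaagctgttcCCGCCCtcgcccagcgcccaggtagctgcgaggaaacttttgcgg
The Afp promoter was 40.0% G or C with 3 CpG sites, and the Gpc3 promoter 70.7% with 30, against a median of 7 CpG sites over all 32544 promoters. The Afp stretch held GTTAAT, found in 7.13% of all promoters, the forkhead core (5.08%) and the TATA box (13.57%). The Gpc3 stretch held 4 GC boxes (35.88% of promoters hold at least 1) and none of the other 3 motifs. These are matches of letters in one window and not measured sites.

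H19 is also the host of miR-675, whose hairpin lies in its exon. The mature forms in RefSeq are shown, with bases 2 to 8 (the seed) in capitals, because H19 is the only noncoding RNA of the 6 genes. The 2 arms do not share a seed, and neither was measured by these libraries.
mmu-miR-675-5p: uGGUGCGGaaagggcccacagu
mmu-miR-675-3p: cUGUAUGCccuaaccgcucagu

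Afp was the gene of the 6 with the clearest response to hepatectomy, and it was higher in WT than in KO livers at 48 h. WT sham livers held 2.07, 0.574, 0.778, 1.05 and 0.814 CPM. At 48 h the 4 WT livers held 8.49, 10.4, 47.1 and 5.94 CPM, so that every one was above every sham liver. The log2 change was 4.16 (SE 0.56, adjusted p = 4.48e-05), a fold of 17.9. Replicate 3, at 47.1 CPM, lay far above the other livers of its group, and without it and WT replicate 3 at 24 h the change was 2.92 (adjusted p = 0.000156). In whole liver, more RNA per cell and more cells that make it cannot be told apart.

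Of the 6 genes, 4 were called higher in WT livers at 48 h, against 4.68% of all genes tested, and 3 without the 2 libraries that stood apart. The median log2 change of the 6 was 1.87 and that of all genes tested 0.074. By direction-free count, no gene of the 6 was called in WT at 6 h (7.86% of all genes called), WT at 24 h (0.925%), KO at 6 h (6.62%), or at 7 d in WT or KO (0% in each), where unadjusted p was under 0.05 for 2, 4, 0, 0 and 0 of the 6. None was called in the average of genotypes at 6 h (20.6%) or 7 d (0.0514%). Between genotypes none was called in sham livers (0.276%), at 6 h (0.116%), at 7 d (0.0450%) or over the mean of stages (2.72%). None was called for the interaction at 6 h (0%), 24 h (8.47%), 48 h (0%) or 7 d (0%). The comparisons of each stage with sham share the sham livers of that genotype, so they are not independent of each other.

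In KO livers Afp was called higher at 24 h. KO sham livers held 1.07, 0.92, 0.623, 1.2 and 0.556 CPM, and KO livers at 24 h held 2.39, 3.72, 2.04 and 1.8 CPM, with no overlap between the groups. The log2 change was 1.52 (SE 0.53, adjusted p = 0.0308). Afp was the 1 gene of the 6 called in KO at 24 h, a stage at which 15.9% of all genes were called higher. The call was lost without KO sham replicate 3, KO sham replicate 5 or KO replicate 2 at 24 h (adjusted p up to 0.108).

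At 48 h the KO livers held 1.67, 2.4, 3.2 and 0.327 CPM of Afp. The lowest of these was below all KO sham livers and the other 3 were above all of them. The log2 change against KO sham was 1.03 (SE 0.54, adjusted p = 0.416), and none of the 6 genes was called in KO at 48 h (2.30% of all genes were called higher). By unadjusted p none of the 6 was under 0.05 there, and DESeq2 called none.

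The genotypes differed in Afp at 48 h, since all 4 KO livers lay below all 4 WT livers. KO was lower by a log2 change of -3.42 (SE 0.62, adjusted p = 0.00509). Only 0.180% of all genes were called lower in KO at this stage, and Afp was the 1 gene of the 6 among them. The change was -2.33 (adjusted p = 0.0289) without the 2 libraries that stood apart, and it stayed called without each of the 37 libraries in turn (-3.82 to -2.3). It was not called in male livers alone or with the 2 groups fitted alone.

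Whether the rise from sham to 48 h itself differed between genotypes was also tested. The interaction was -3.12 (SE 0.78, unadjusted p = 0.000341, adjusted p = 0.176 with edgeR). DESeq2 gave -3.09 with an adjusted p of 0.015. Without the 2 libraries that stood apart the interaction was -2.01 (adjusted p = 0.395).

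At 24 h no difference between genotypes was detected, with WT livers at 3.09, 3.64 and 1.88 CPM of Afp and a difference of -0.2 (SE 0.58, adjusted p = 0.837). WT livers at 24 h lay partly above WT sham, with a change of 1.42 (SE 0.55, adjusted p = 0.206). Averaged over both genotypes, Afp was higher at 24 h by 1.47 (SE 0.38, adjusted p = 0.0088) and at 48 h by 2.6 (SE 0.38, adjusted p = 2.8e-05). Among all genes, 9.14% were called higher at 24 h and 6.28% at 48 h in these averages.

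The earliest and latest stages gave no called change in Afp. At 6 h the WT livers held 0.444, 0.442 and 0.446 CPM, all below the lowest WT sham liver, from 10 to 12 counts each. The log2 change was -1.36 (SE 0.66, adjusted p = 0.202). KO livers at 6 h held 2.27, 0.629 and 1.35 CPM, all above the WT livers of that stage, with a KO against WT difference of 1.65 (SE 0.7, adjusted p = 0.398). By 7 d Afp was back at 0.811, 1.61 and 1.27 CPM in WT and 0.809, 0.393 and 0.912 CPM in KO, within the range of the WT sham livers except for the lowest KO liver.

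**Figure D1:**
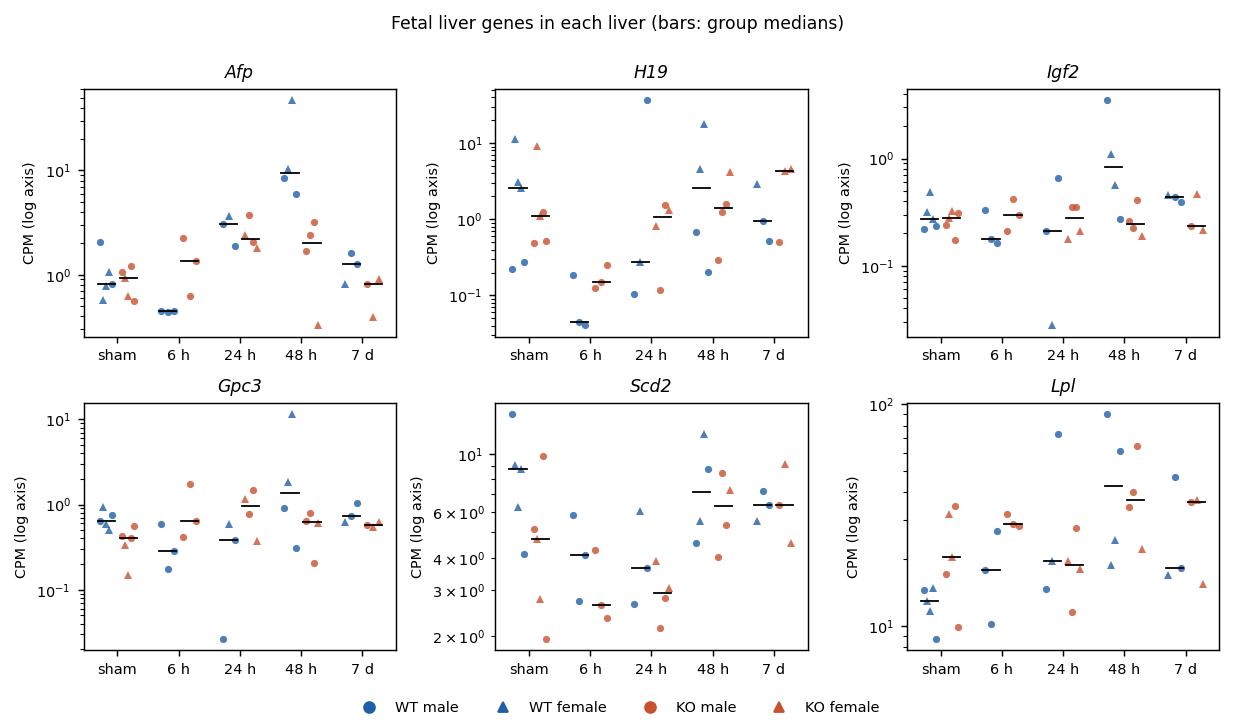
Level of each of the 6 genes in every liver (CPM, log axis) by stage, WT in blue and KO in orange, circles for males and triangles for females, with bars at group medians. The 4 WT livers at 48 h hold 5.94 to 47.1 CPM of Afp and the 4 KO livers 0.327 to 3.2 CPM.

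Within the WT 48 h group, the 4 livers ranked in opposite orders for Afp and for the proliferation gene Mki67. The 4 WT livers held 40.2, 14.4, 0.785 and 69.3 CPM of Mki67, in the order in which they held 8.49, 10.4, 47.1 and 5.94 CPM of Afp. The liver with the most Afp thus had the least Mki67, within the 0.645 to 3.4 CPM of the WT sham livers, and the liver with the least Afp had the most. KO livers at 48 h held 47.8, 30, 19.6 and 26.2 CPM of Mki67, and the genotypes did not differ detectably in Mki67 at that stage (-0.01, SE 0.83, adjusted p = 0.999). Of 12 proliferation genes, 11 rose in WT at 48 h (12 without the 2 libraries that stood apart) and 12 rose in KO. Among all genes, 4.68% were called higher in WT and 2.30% in KO at that stage. Cdk1, a mitotic kinase, was up by 3.58 in WT and 3.49 in KO. Without the 2 libraries none of the 12 was called between genotypes at 48 h (median change -0.25). The part of proliferation in the level of Afp was not tested.

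**Figure D2:**
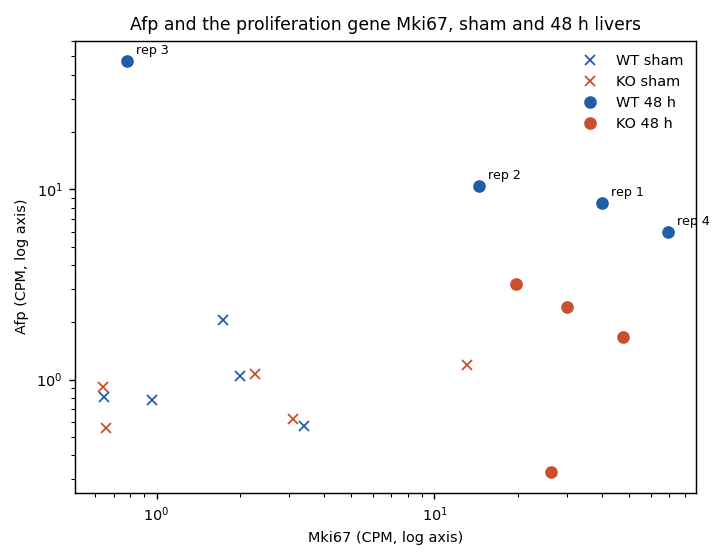
Afp against Mki67 (CPM, both axes log) in sham livers (crosses) and livers at 48 h (circles), WT in blue and KO in orange. At 48 h Mki67 lies at 14.4 to 69.3 CPM in 3 WT livers and at 19.6 to 47.8 CPM in KO livers, with WT replicate 3 at 0.785 CPM, and the KO circles lie below the WT circles in Afp.

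The albumin gene family, the chromosomal neighbours and relatives of Afp, were read beside it. Alb did not change detectably at 48 h in WT (-0.04, SE 0.23, adjusted p = 0.941) or KO (-0.4, SE 0.23, adjusted p = 0.508). Gc, which encodes the vitamin D-binding protein, was the 1 of 3 relatives called, lower in WT at 48 h, and the call was lost without the 2 libraries that stood apart. Afm, the afamin gene, was not called at 48 h in either genotype (-0.38 and -0.02). Of 8 hepatocyte markers, 3 fell in WT at 48 h, where 563 of all 15564 genes were called lower, and the same number fell without the 2 libraries that stood apart. These were Cyp2e1, a cytochrome P450 (-1.82, adjusted p = 0.0023), Serpina1c, a protease inhibitor of plasma (-1.1, adjusted p = 0.00865), and Cps1, the urea cycle enzyme (-1.05, adjusted p = 0.0215). None of the 8 was called in KO at 48 h. Without the 2 libraries the median change of the 8 at 48 h was -0.61 in WT and -0.56 in KO. None of the 8 was then called between genotypes at that stage. The part of these changes in the level of Afp was not tested.

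The known repressors of Afp were measured in every liver. Zhx2 was at 11.6 to 19.1 CPM in WT sham livers and at 11.9, 12.8, 11.4 and 13 CPM in WT livers at 48 h, a change of -0.33 (SE 0.21, adjusted p = 0.383). Against sham it was called in 1 stage, KO at 24 h, where livers held 8.26, 8.92, 6.97 and 2.97 CPM against 7.25 to 16.5 CPM in KO sham livers (-0.77, SE 0.22, adjusted p = 0.00942). At 48 h the KO livers were back at 18.3, 14.2, 12.7 and 13.9 CPM of Zhx2, and KO against WT was 0.18 (SE 0.23, adjusted p = 0.82).

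Zbtb20 and Zfhx3 were called at no stage in either genotype at 6 h, 24 h or 48 h. Their changes in WT at 48 h were -0.38 (SE 0.34, adjusted p = 0.543) for Zbtb20 and 0.02 (SE 0.22, adjusted p = 0.978) for Zfhx3. Of 18 regulators of the fetal liver programme, 1 fell in WT at 48 h, Cebpa, a factor of mature hepatocytes (-1.57, SE 0.36, adjusted p = 0.00609), and none was called in KO at 48 h or between genotypes at 48 h. Between genotypes at 24 h, 2 of the 18 were called lower in KO, with or without the 2 libraries that stood apart, where 7.50% of all genes were called lower with all livers. Over the mean of stages none was called with all livers and 3 were called lower in KO without the 2 libraries. At 24 h in KO, where 1874 of all 15564 genes were called lower, 5 fell (7 without the 2 libraries that stood apart), among them Foxa2 (-1.04), Nr5a2 (-0.7) and Zhx3 (-0.88). At this stage 7 of 8 Kupffer cell markers fell, with Clec4f at -1.67 (adjusted p = 0.00174), and of 7 sinusoidal endothelial markers 5 fell, with Clec4g at -1.95 (adjusted p = 0.000548), and Lyve1 rose (1.64, adjusted p = 0.0204). The part of these cell types in the values of the regulators was not tested. At 6 h, 7.86% of all genes were called in either direction in WT, 6.62% in KO and 20.6% in the average of genotypes. There 2 of the 18 regulators fell in WT, 5 in KO and 7 in the average. Of these Hhex, a factor of early liver development, fell in both genotypes, by 1.44 on the log2 scale in WT and 1.98 in KO.

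**Figure D3:**
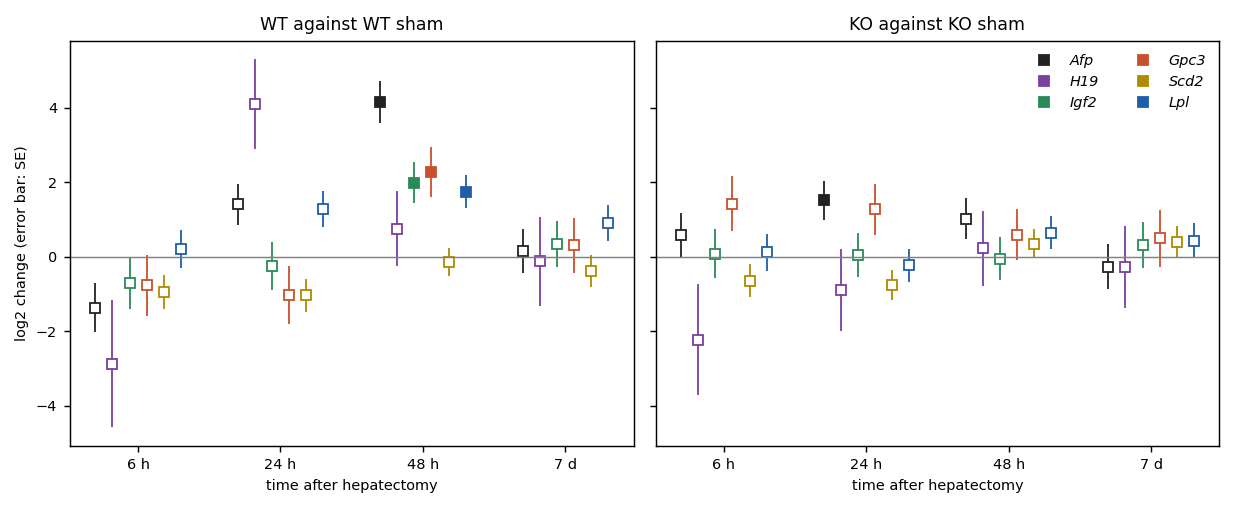
Log2 change of each gene against the sham group of its genotype (y axis, error bars SE) at 4 times after hepatectomy, with filled squares for called changes. In WT 4 squares are filled, all at 48 h and led by Afp at 4.16, and in KO the 1 filled square is Afp at 24 h (1.52).

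H19 varied widely between single livers and was higher in females. In WT sham livers it was at 0.222, 11.2, 3.06, 2.61 and 0.271 CPM, with the 2 males at the bottom of that range. KO sham livers held 0.483, 9.29, 1.12, 1.24 and 0.521 CPM. Here a male at 1.24 CPM was above a female at 1.12 CPM, and in KO at 24 h a male at 1.55 CPM was above both females. The 14 females had a median of 3.64 CPM (0.278 to 17.6) and the 23 males a median of 0.289 CPM (0.0406 to 36.4), so the ranges overlapped. These males include all livers at 6 h after hepatectomy, the stage with the lowest H19. In the fit with groups, H19 was lower in males by a log2 change of -2.56 (SE 0.69, adjusted p = 0.0267), and it was the 1 gene of the 6 called for sex, against 1.97% of all genes called lower in males.

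The sex difference in H19 was -2.59 (adjusted p = 0.000145) without the 2 libraries that stood apart. It ranged from -2.97 to -2.25 as each library was left out, and was called in 30 of 37 such fits. The call was lost without WT sham replicate 1 or 5, WT 48 h replicate 1 or 4, KO sham replicate 2, KO 48 h replicate 4 or KO 7 d replicate 1 (adjusted p up to 0.108).

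H19 was lowest at 6 h, when the WT livers held 0.185, 0.0442 and 0.0406 CPM and the KO livers 0.126, 0.15 and 0.25 CPM. All 6 lay below all sham livers of their genotype, and all 6 were male. Averaged over genotypes the change, with sex in the fit, was -2.54 (SE 1.1, adjusted p = 0.115). DESeq2 gave -2.57 with an adjusted p of 0.0261, and edgeR without the 2 libraries that stood apart gave -2.6 (adjusted p = 0.0133).

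At 24 h a single WT liver set the values of H19. The WT livers held 0.106, 0.278 and 36.4 CPM (4, 10 and 1429 counts) and the KO livers 0.809, 0.118, 1.55 and 1.34 CPM. KO was called lower than WT (-4.78, SE 1.3, adjusted p = 0.0131), in a comparison in which 7.50% of all genes were called lower and H19 was the 1 gene of the 6. Without WT replicate 3 the difference was 2.74, in the other direction, and not called. The call was also lost without KO 24 h replicate 4. Averaged over genotypes, H19 at 24 h against sham was 1.61 (adjusted p = 0.177) with all livers and -2.18 (adjusted p = 0.0351) without the 2 libraries that stood apart.

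At 48 h H19 was at 0.686, 4.53, 17.6 and 0.202 CPM in WT and at 0.289, 1.25, 1.58 and 4.22 CPM in KO. The WT values went beyond the sham range at both ends, and in KO 1 liver was below all sham livers and the others within their range. The change was 0.76 (SE 1, adjusted p = 0.703) in WT and 0.23 (SE 1, adjusted p = 0.966) in KO. At 7 d the WT livers held 2.91, 0.947 and 0.513 CPM and the KO livers 0.496, 4.25 and 4.53 CPM, and in both genotypes every female was above every male of that stage.

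Transcripts of striated muscle, a tissue where H19 remains expressed after birth, were present in some of these libraries. The liver with 36.4 CPM of H19 held 305 CPM of Ckm (muscle creatine kinase) and 491 CPM of Acta1 (skeletal actin), and all 12 muscle markers were above 1 CPM. The liver with the next highest H19, WT 48 h replicate 3 at 17.6 CPM, held 109 CPM of Ckm and 236 CPM of Acta1. WT sham replicate 2, with 11.2 CPM of H19, held 22.2 and 47.8 CPM, with 11 of the 12 markers above 1 CPM. KO sham replicate 2, with 9.29 CPM of H19, held 0 CPM of Ckm and 0.0613 CPM of Acta1, and its 12 markers summed to 1.81 CPM. The part of muscle RNA in the H19 values was not tested. This marker list was chosen after the H19 values had been seen.

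**Figure D4:**
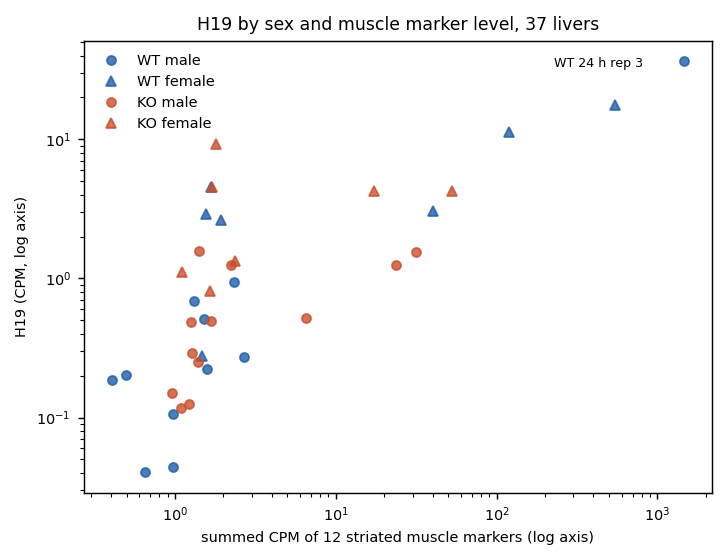
H19 (CPM, log axis) against the summed CPM of 12 striated muscle markers (log axis) in 37 livers, WT in blue and KO in orange, circles for males and triangles for females. The 3 livers with the highest H19 (11.2, 17.6 and 36.4 CPM) are also those with the highest marker sums (119, 546 and 1459 CPM), and below a sum of 3 CPM H19 still spans 0.0406 to 9.29 CPM.

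The genes whose pattern lay nearest to that of H19 were highest in 1 of these libraries. Over the 37 livers, by Pearson r of log2(CPM + 0.5), these were Fndc5 (0.83), Eno3 (0.8), the muscle enolase, and Ptp4a3 (0.79), each highest in WT 24 h replicate 3. With group and sex subtracted they were Itgb1bp2 (0.91), Hrc (0.9) and Scn4b (0.9), again highest in that liver.

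Igf2, the neighbour of H19, was near its floor in all but a few livers. The 19 KO livers held 0.174 to 0.466 CPM (median 0.26), with no stage called against sham. WT sham livers held 0.222, 0.319, 0.492, 0.271 and 0.237 CPM, and WT livers at 48 h held 3.49, 1.1, 0.571 and 0.275 CPM, from 107, 56, 24 and 15 counts. The first 3 lay above all WT sham livers, and the other was within their range. At 6 h the level of Igf2 in WT livers was 0.333, 0.177 and 0.162 CPM. WT livers taken at 24 h had 0.211, 0.0278 and 0.662 CPM, and those taken at 7 d had 0.453, 0.435 and 0.392 CPM.

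The change of Igf2 in WT at 48 h was 1.99 (SE 0.55, adjusted p = 0.0218), and 2.29 (adjusted p = 0.00598) without the 2 libraries that stood apart. It fell to 1.05 without WT 48 h replicate 1 and was then not called, nor was it without WT sham replicate 1 or 5. KO against WT at 48 h was -2.35 (SE 0.6, adjusted p = 0.0797) with all livers and -2.57 (adjusted p = 0.0429) without the 2 libraries, and DESeq2 gave -2.36 (adjusted p = 0.0156). The Igf2 interaction at 48 h was -2.04 (SE 0.8, adjusted p = 0.525).

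The liver with the most Igf2 was not the liver with the most Afp, H19 or Gpc3. WT 48 h replicate 1 held 3.49 CPM of Igf2 and 0.686 CPM of H19, while replicate 3 held 0.571 and 17.6 CPM. The residual relation of the 2 neighbours, with group and sex subtracted, was r = 0.32 over 37 livers (permutation p = 0.241, adjusted p = 0.409; Spearman rho 0.36, permutation p = 0.0834, adjusted p = 0.285), and r = 0.25 without the 2 livers farthest from the H19 median.

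Partners of Igf2 and other imprinted genes were read from fixed lists. Igf2r, the receptor that removes the growth factor, and Igf1 were not called at 6 h, 24 h or 48 h in either genotype. Of 14 tested genes of the IGF axis none was called in WT at 48 h. Without the 2 libraries that stood apart 1 was called lower there. In KO at 48 h 1 was called lower. In the average of genotypes at 48 h 1 was also called lower, Igfbp3 (-1.54, SE 0.3, adjusted p = 0.000652). Igfbp1, a secreted binding protein, rose at 6 h by 3.15 in WT and 4.02 in KO, and at 48 h was lower in KO than WT by -4.69 (SE 1, adjusted p = 0.0296, and 0.0907 without the 2 libraries that stood apart). Igfbp1 at 48 h was 883, 1000, 1148 and 27.9 CPM in WT and 20.5 to 48.7 CPM in KO, so 3 WT livers were above all KO livers and the other was among them. Igf2bp3, an oncofetal RNA-binding protein, was higher in KO averaged over the stages (2.89, SE 0.46, adjusted p = 0.000178), although its highest level in any liver was 3.16 CPM. It was the 1 gene called there of 13 tested in a list of other oncofetal genes, against 2.72% of all genes in either direction. Without the 2 libraries, 2 of 14 were called higher. None of the 13 was called in WT or KO at 48 h. In the 48 h average 1 was called, Golm1 (1.1, adjusted p = 0.0126), where 6.28% of all genes were called higher.

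Of 12 tested imprinted genes, 1 fell in WT at 48 h, the amino acid transporter Slc38a4 (-0.87, adjusted p = 0.0227). Among all 15564 genes, 563 were called lower there. In KO at 24 h 1 rose, the noncoding RNA Meg3 (4.27, SE 0.77, adjusted p = 0.000246), and 1 fell, the cell cycle inhibitor Cdkn1c (-0.8, adjusted p = 0.0444). At that stage 15.9% of all genes were called higher and 1874 of 15564 lower, so these counts do not stand out from all genes. Without the 2 libraries that stood apart 13 were tested, and Peg3 was also called higher in WT at 48 h (1.72, adjusted p = 0.0285), while in KO at 24 h Dlk1 was also called higher (4.38, adjusted p = 0.00117) and Mest lower (-1.42, adjusted p = 0.0369). The 4 KO livers held 0.422, 8.27, 7.73 and 1.97 CPM of Meg3 against at most 0.464 CPM in KO sham livers. Dlk1, the imprinted neighbour of Meg3 and a marker of fetal liver cells, was too low to be tested with all livers, and was highest in 2 of these same livers at 0.532 and 2.35 CPM.

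Gpc3 was low in every group and was called only with 1 liver included. Sham livers of WT held 0.641, 0.935, 0.596, 0.509 and 0.746 CPM, and WT livers at 48 h held 0.914, 1.82, 11.5 and 0.311 CPM, from 28, 93, 482 and 17 counts. Of these 4 livers, 1 was below all sham livers, 1 was within their range and 2 were above it. The change was 2.29 (SE 0.67, adjusted p = 0.0306), and 0.55 without WT 48 h replicate 3 (not called). It was also not called without WT sham replicate 1, 2, 3 or 4.

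The liver with 11.5 CPM of Gpc3 is the one with 47.1 CPM of Afp and 17.6 CPM of H19. KO livers at 48 h held 0.635, 0.799, 0.207 and 0.6 CPM of Gpc3, and KO against WT was -2.47 (SE 0.77, adjusted p = 0.168), or -0.81 (adjusted p = 0.831) without the 2 libraries that stood apart. DESeq2 called it with all livers (-2.45, adjusted p = 0.035). At 24 h the WT livers held 0.0264, 0.584 and 0.382 CPM and the KO livers 1.16, 0.768, 1.47 and 0.376 CPM (1.53, SE 0.81, adjusted p = 0.176). At 6 h Gpc3 was at 0.592, 0.177 and 0.284 CPM in WT and at 0.42, 1.74 and 0.65 CPM in KO, and at 7 d at 0.62, 0.743 and 1.03 CPM in WT and 0.574, 0.54 and 0.617 CPM in KO. The KO livers lay below all WT livers at 7 d, a difference of -0.59 (SE 0.83, adjusted p = 1). Of the other glypicans, Gpc6 fell in KO at 24 h (-1.49, SE 0.45, adjusted p = 0.0138) and none was called at 48 h in either genotype.

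Lpl rose at 48 h in WT, in all 4 livers. Its level in WT sham livers was 14.5, 13, 11.7, 14.8 and 8.72 CPM, and WT livers at 48 h held 90.1, 18.8, 24.5 and 61.4 CPM, all above all sham livers. The change was 1.75 (SE 0.45, adjusted p = 0.0141), and 2.01 (adjusted p = 0.00487) without the 2 libraries. It was 1.39 and not called without WT 48 h replicate 1 (adjusted p = 0.0611). The higher 2 livers were male and the lower 2 female.

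KO sham livers started from 17.2, 31.9, 20.4, 34.6 and 9.87 CPM of Lpl, a range that overlapped that of WT sham (0.78, SE 0.42, adjusted p = 0.44). KO livers at 48 h held 34.3, 40, 65 and 22.2 CPM, which overlapped KO sham, and the change was 0.65 (SE 0.45, adjusted p = 0.603). The interaction at 48 h was -1.1 (SE 0.62, adjusted p = 0.701). Averaged over genotypes, Lpl was higher at 48 h by 1.2 (SE 0.32, adjusted p = 0.0131), and 3 of the 6 genes were called higher in that average, with Gpc3 as the last (1.45, adjusted p = 0.0471). The Lpl average was not called without the 6 h sham livers. The Gpc3 average was called in only 12 of 37 fits with 1 library left out, and without the 2 libraries it was not called.

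At 6 h Lpl was at 17.9, 10.2 and 26.8 CPM in WT and, above all of these, at 32, 28.8 and 28.1 CPM in KO (0.69, SE 0.54, adjusted p = 0.679). At 7 d the WT livers held 17, 46.8 and 18.2 CPM, still above all WT sham livers (0.91, SE 0.48, adjusted p = 0.841), and the KO livers 36.1, 36.9 and 15.4 CPM. KO livers at 24 h held 19.6, 11.5, 27.7 and 18.1 CPM, within the KO sham range.

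Adipocytes make much Lpl, so their defining markers were read beside it. In the 2 WT livers at 48 h with the most Lpl (90.1 and 61.4 CPM), Adipoq (adiponectin) and Plin1 (perilipin) were both at 0 CPM, as they were in KO 48 h replicate 3 (65 CPM of Lpl). In the 2 WT livers at 48 h with less Lpl, Adipoq was at 3.25 and 1.07 CPM. The 6 adipocyte markers summed to 0.912 to 8.35 CPM in WT sham livers and 1.25 to 34.2 CPM in WT livers at 48 h, and none of the 5 tested was called in WT at 48 h. At 24 h the highest Lpl, 73.7 CPM, was in WT replicate 3, the liver with the most muscle RNA, with 2.26 CPM of Adipoq, and the other WT livers held 14.7 and 19.6 CPM of Lpl. The part of these tissues in the Lpl values was not tested.

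Genes that act with Lpl were called in both directions only with the 2 libraries that stood apart included. Of 15 tested in WT at 48 h, 2 rose and 3 fell (2 fell and none rose without those 2 libraries). Among all genes, 4.68% were called higher there and 563 of 15564 lower. Gpihbp1, which anchors the lipase on capillaries, fell from 8.79 to 17.3 CPM in sham livers to 6.3, 4.8, 5.14 and 5.09 CPM, with no overlap (-1.3, SE 0.27, adjusted p = 0.00351, and -1.31 without the 2 libraries). It is an endothelial gene, and 7 sinusoidal endothelial markers summed to 92.9 to 228 CPM in WT sham livers and 44.3 to 102 CPM in WT livers at 48 h, with a median change of -0.96 (-0.73 without the 2 libraries). Of those 7, Stab2 fell (-1.15, adjusted p = 0.0286), a call lost without the 2 libraries, and the part of endothelial RNA in the value of Gpihbp1 was not tested. Lipc, hepatic lipase, fell by 1.96 on the log2 scale (adjusted p = 0.00016, and 0.000156 without the 2 libraries). Apoc2, the cofactor of the lipase, rose by 1.45 (adjusted p = 0.00548) and Cd36, a fatty acid transporter, by 1.81 (adjusted p = 0.038), but without the 2 libraries these were 0.8 (adjusted p = 0.118) and 1.3 (adjusted p = 0.121). Angptl4, an inhibitor of the lipase, was not called (0.64, SE 0.58, adjusted p = 0.549). In KO at 48 h none of the 15 was called, and 1 was called lower without the 2 libraries. In that setting the median change of the 15 was -0.48 in WT and -0.58 in KO. None of the 15 was then called between genotypes at 48 h.

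Scd2 was not called higher at any stage. The WT sham group held 14.2, 9.1, 6.27, 8.72 and 4.14 CPM, and WT livers at 48 h held 4.57, 5.52, 11.9 and 8.74 CPM, within that range (-0.14, SE 0.38, adjusted p = 0.87). KO sham livers held 5.16, 4.72, 2.79, 9.83 and 1.95 CPM and KO livers at 48 h 4.01, 8.44, 5.34 and 7.3 CPM (0.36, SE 0.38, adjusted p = 0.795).

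At 24 h Scd2 was lower than in sham livers when both genotypes were averaged (-0.89, SE 0.29, adjusted p = 0.0358), where 7.86% of all genes were called lower. WT livers held 2.67, 6.06 and 3.66 CPM and KO livers 3.9, 2.16, 2.8 and 3.05 CPM, overlapping the sham livers of their genotype. Neither genotype passed alone (adjusted p = 0.245 in WT and 0.158 in KO). The call was lost in 9 of 37 fits with 1 library left out, those without WT sham replicate 1 or 2, WT 24 h replicate 1 or 3, KO sham replicate 1 or 4, or KO 24 h replicate 2, 3 or 4. It was also lost without the 2 libraries that stood apart (-0.88, adjusted p = 0.0739), in males alone and with the compared groups fitted alone. At 6 h the WT livers held 5.85, 2.74 and 4.1 CPM of Scd2 and the KO livers 4.28, 2.63 and 2.35 CPM, and at 7 d 5.53, 7.19 and 6.37 CPM in WT and 6.37, 9.15 and 4.56 CPM in KO. The average over genotypes at 6 h was -0.79 (SE 0.32, adjusted p = 0.0773), and DESeq2 gave -0.84 (adjusted p = 0.0436).

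Scd1, the desaturase of the adult liver, was read beside Scd2. It fell at 48 h by 3.6 on the log2 scale in WT (SE 0.63, adjusted p = 0.00081) and by 2.34 in KO (SE 0.59, adjusted p = 0.0214). WT sham livers held 667 to 14207 CPM of Scd1 and WT livers at 48 h 452, 103, 717 and 2063 CPM. KO livers at 48 h held 1385, 1616, 2685 and 1951 CPM, all below the lowest KO sham liver at 2851 CPM. The difference between Scd1 and Scd2 in their changes was not tested.

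Levels were also put on a scale per length of exon (CPM per kb), with all annotated exons of a gene merged. That length was 10478 bp for Lpl, and the length of the transcripts present was not measured, so the order of genes depends on it. The means of Scd2, H19 and Lpl in WT sham livers differed by less than the SD of Scd2, so their order was not resolved. In WT sham livers the mean level was 1.55 ± 0.689 (SD, n = 5) for Scd2, 1.41 ± 1.84 for H19, 1.2 ± 0.236 for Lpl, 0.314 ± 0.176 for Afp, 0.255 ± 0.0608 for Gpc3 and 0.0539 ± 0.0191 for Igf2. In WT livers at 48 h Afp was at 5.34 ± 5.79 (SD, n = 4) and Lpl at 4.65 ± 3.19 on the same scale. In the order of group means, the WT 48 h group was the highest for Afp, Igf2, Gpc3 and Lpl, the WT 24 h group for H19 and the WT sham group for Scd2. In none of the 6 did the highest group exceed the next by more than the larger of their SDs.

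The nearest patterns of the other genes differed from that of H19. For Afp over the 37 livers they were Tuba8 (r = 0.78), St8sia3 (0.77) and 1500011B03Rik (0.74), and within groups Clcn6 (0.84), Atp6v0a1 (0.75) and Lss (0.75), a sterol synthesis enzyme, all 6 of them highest in WT 48 h replicate 3. For Lpl they were Dbf4 (0.66) and Spc25 (0.65), both cell cycle genes, and Bbip1 (0.66), and within groups Gng11 (0.7), Hyls1 (0.67) and Tent5a (0.67). For Scd2 they were Tmem106a (0.79), Arl4c (0.79) and Cd180 (0.78), and within groups Mpeg1 (0.76), a macrophage gene, Akna (0.72) and Brip1 (0.72). These r values describe 37 livers that share groups and libraries, and Igf2 and Gpc3, with means under 1 CPM, were left out.

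With group and sex subtracted, the 6 genes did not move together in a way that passed a test. Of 15 pairs, none passed a permutation test adjusted over the 15 (lowest adjusted p = 0.249). Afp and Gpc3 had r = 0.49 (permutation p = 0.181, adjusted p = 0.408; Spearman rho 0.08, permutation p = 0.693, adjusted p = 0.743), and r = -0.29 without the 2 livers farthest from the Afp median, so the relation rests on those livers. Afp and Lpl, both called in WT at 48 h, had r = -0.12 (permutation p = 0.621, adjusted p = 0.717; Spearman rho -0.08, permutation p = 0.68, adjusted p = 0.743), and r = 0.14 without those 2 livers.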

How the data were processed

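RNA of frozen liver pieces was made into stranded mRNA libraries, per the labels' protocols. The deposited table holds whole numbers, taken to be rounded expected counts per gene, since the submitters' processing notes name STAR 2.5.3a, RSEM 1.3.0 and GRCm38. The strand setting and annotation are not given in the sources used here. Totals ran from 26232544 to 48827025 counts per library, and no 2 replicates of a group agreed within sampling noise. Sex-linked transcripts matched the labelled sex in 37 of 37 livers.

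Genes passing filterByExpr (15564) were scaled by TMM and fitted in R 4.3.3 with edgeR 4.0.16, in 1 robust quasi-likelihood model of 10 groups plus sex, with Benjamini-Hochberg adjustment over all genes and a threshold of 0.05. Each SE was recovered from the change and its F statistic. The model was tested on simulated data. Alternatives were DESeq2 1.42.0, RLE scaling, no filter, no sex term, males alone, the compared groups alone, no 6 h sham livers and each library left out. An alternative without WT 24 h replicate 3 and WT 48 h replicate 3 was chosen after seeing the data. Relations between genes used log2(CPM + 0.5) and 100000 permutations within groups. Positions and exon lengths came from GENCODE M21.

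All 6 genes are named in full, and from each gene list the counts, a fixed panel and up to 4 genes with the smallest p against sham; others are named beside a count. The 3 nearest patterns are given for genes with a mean of at least 1 CPM. The genes and lists were chosen with earlier results of these data known. One gene of the regulator list is not reported here.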

Additional observations from a re-analysis of the deposited data

Results flagged for a closer look

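Dixon's criterion was read in the 30 sets of 1 gene in 1 group of 4 or 5 livers. In 4 of them it set a liver apart from the rest of its group. Chance alone meets it in about 1 in 20 groups only if values are normally distributed, which was not tested for these CPM values. The 4 are therefore not set against chance. Afp in WT 48 h replicate 3 was 47.1 CPM, and Gpc3 in the same liver was 11.5 CPM. H19 in WT sham replicate 2 was 11.2 CPM, in a liver with 119 CPM of summed striated muscle markers. H19 in KO sham replicate 2 was 9.29 CPM, in a liver with 1.81 CPM of those markers. All 4 values are from female livers. Groups of 3 livers, which include WT at 24 h with its H19 value of 36.4 CPM, are too small for this criterion.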

How the results depend on the processing

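The rise of Afp at 48 h in WT and its average over genotypes at 48 h were called under all 8 alternatives and without each of the 37 libraries. No paired analysis was possible because the labels give no replicate numbers, and those used are in accession order only. In livers where Igf2, Gpc3 or H19 had few counts, counting error is wide, and small changes are not detectable at this depth.

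The number of the 6 genes called changed as follows. Without a filter on low counts it was 2 in WT at 6 h, 3 in WT at 24 h, 1 in KO at 6 h, 2 in the 6 h average, 3 in the 24 h average, 1 for KO against WT in sham livers and 3 at 48 h, 3 and 1 for the interactions at 24 h and 48 h, 2 for KO against WT over stages and 2 for sex. With DESeq2 it was 1 in WT at 24 h, 2 in the 6 h average, 3 for KO against WT at 48 h, and 1 for each of the interactions at 24 h and 48 h. The 48 h average fell to 2 under RLE scaling, males alone, compared groups alone, omission of the 6 h sham livers and omission of the 2 WT libraries. In males alone it was 1 in WT at 48 h, 0 in the 24 h average and 0 for KO against WT at 48 h. With the compared groups alone it was 1 in WT at 48 h, 1 in the 24 h average, and 0 for KO against WT at 24 h and at 48 h. Without a sex term it was 2 in the 6 h average and 0 for KO against WT at 24 h. Without the 6 h sham livers it was 3 in WT at 48 h, 0 in KO at 24 h, 1 in the 6 h average and 0 for sex. Without the 2 WT libraries that stood apart it was 3 in WT at 48 h, 2 in the 6 h average, 0 for KO against WT at 24 h and 2 at 48 h. With each library left out, the counts ran from 2 to 4 in WT at 48 h, from 1 to 2 in the 24 h average, from 2 to 3 in the 48 h average, from 1 to 3 for KO against WT at 48 h, and from 0 to 1 in WT at 24 h, KO at 24 h, the 6 h average, KO against WT at 24 h, the interactions at 24 h and 48 h, and sex.

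Directions turned mostly in H19 at 24 h. With each library left out, H19 ran from -3.34 to 4.98 in WT at 24 h, from -2.13 to 2.03 in the 24 h average, from -6.5 to 2.74 for KO against WT at 24 h, from -6.86 to 2.42 for the interaction at 24 h and from -1.1 to 0.74 for KO against WT over stages. The same 5 values without the 2 WT libraries were -3.39, -2.18, 2.67, 2.43 and 0.91. Lpl for KO against WT at 24 h ran from -1.12 to 0.07 with each library left out and was 0.08 without the 2. The Gpc3 interaction at 48 h ran from -2.11 to 0.02, and was 0.02 without the 2 libraries and 0.45 in males alone, where Gpc3 in WT at 48 h was -0.19. Igf2 for sex ran from -0.01 to 0.43. Of the relations between genes, Afp with Gpc3 was -0.29 and Gpc3 with Lpl 0.03 without the 2 farthest livers, and in males alone Afp with Igf2 was 0.04, Afp with Gpc3 -0.63, Gpc3 with Scd2 -0.08 and Gpc3 with Lpl 0.17. The cause was not tested. A further 211 sign changes were of values within 1 SE of 0 and called in neither fit. Of single values that kept their direction, 76 lost a call and 52 gained one.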
